A study of Mus musculus with 12 samples.

Results

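A list of 9 marker genes of tuft cells, namely Pou2f3, Trpm5, Avil, Ascl2, Gfi1b, Chat, Il25, Dclk1 and Gnat3, was followed through the RNA of normal mouse lung and of mouse tumors. The list was set by gene name, with earlier results of these data known, and all 9 were found among the 30399 genes of the deposited table. The series, which its title places in CRISPR/Cas9 mutagenesis without viruses to make mouse lung cancer models, holds 5 normal lungs and 7 tumors sequenced after poly-A selection. The labels used here give no strain, age, sex, histology, mutated gene or guide for any sample, so the groups are known only as normal lung and tumor. Samples are numbered within each group. The titles of tumors 1 and 7 contain the Spanish word for trachea and those of tumors 3 to 6 the word for lung, as does that of normal lung 5. Tumors 3 and 4 share the title number 159, and tumors 5, 6 and 7 share 201. The labels do not say whether samples with a shared number come from the same animal, so p-values measure the spread between these samples, which may be partly technical.

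Tuft cells are rare chemosensory cells of the airway and gut lining that carry a tuft of microvilli. Pou2f3 is the transcription factor they need to form, and its coactivators of the Pou2af family are needed for its program. The cells read luminal signals through the taste cascade, in which a receptor, the G protein gustducin (Gnat3 with Gnb3 and Gng13), phospholipase Plcb2 and the calcium-release channel Itpr3 open the cation channel Trpm5, and they answer with acetylcholine made by Chat, the cytokine Il25 and eicosanoids. In human small cell lung carcinoma, tumors in which POU2F3 dominates form a tuft-like subtype that lacks the neuroendocrine program, apart from subtypes dominated by other regulators such as NEUROD1 or YAP1. The member list was set to ask whether any of these mouse tumors resembled the Pou2f3 subtype.

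No tumor had a Pou2f3 level above the range of normal lung, while the member genes themselves went in different directions. Chat, Il25, Avil and Dclk1 were higher in tumors, Gnat3 and Gfi1b were lower, and Pou2f3, Trpm5 and Ascl2 did not pass the test. Values are normalized counts, that is reads per gene divided by a scaling factor for each library, and differences are log2 fold changes of tumor over normal lung on log2(normalized count + 1), tested with limma over all genes and called at an adjusted p under 0.05. The 4 higher and 2 lower calls among the 9 members stand against a background in which 61.5% of 23674 tested genes were called, 31.4% higher and 30.1% lower. Every tumor was above every normal lung for 4 of the 9 members, the same 4 that were called higher, and for 20.1% of tested genes. Neither lower member separated the groups fully, and 18.4% of genes had every tumor below every normal lung. The median log2 fold change was 0.75 over the members and 0.04 over all tested genes. Count tests serve as alternatives. The planned edgeR fit, with its low-count filter, called 6384 genes higher and 4821 lower of 18308. Without that filter, a setting chosen after seeing the data, edgeR called 23.3% higher and 19% lower. DESeq2 called 30.6% higher and 24.7% lower. The edgeR values given below are from the filtered fit unless stated. All 9 passed the filter of a mean of at least 1 normalized count, Chat and Il25 only through their tumor values. For Chat and Il25 the filter thus favoured the separation of the groups, which is given as a description only.

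**Figure D1:**
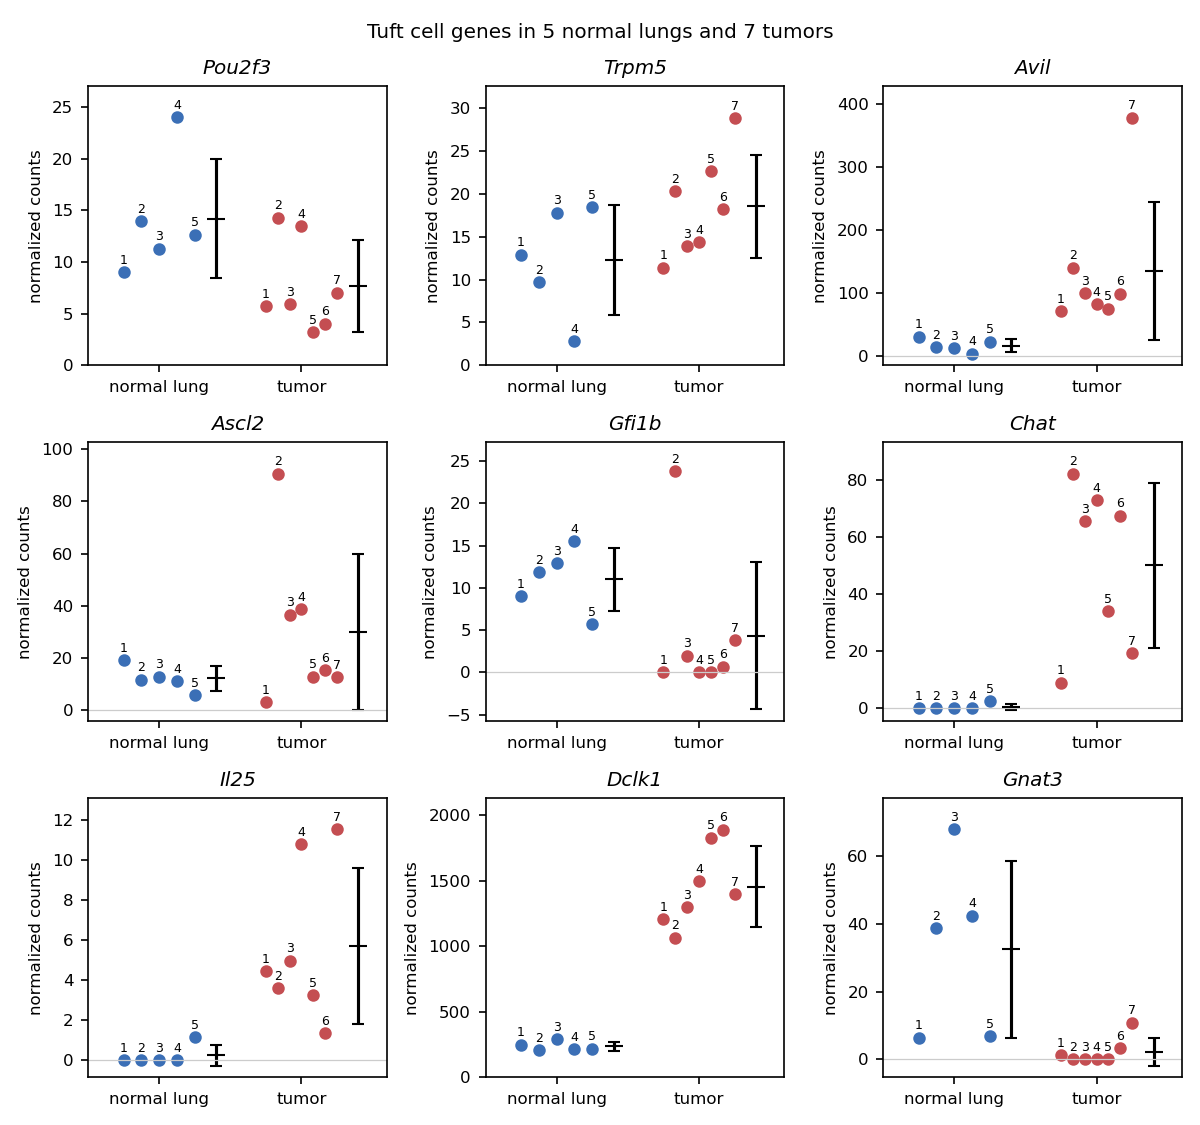
Normalized counts of the 9 genes, with a panel for each gene and its own linear axis. Points are samples with their number within the group, and the black dash and bar give mean and SD (5 normal lungs, 7 tumors); Chat, Il25, Avil and Dclk1 have all tumors above all normal lungs, and 5 of the 7 tumors lie below all normal lungs for Pou2f3.

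The normal lung libraries totalled 11126432 to 17032234 reads, and the tumor libraries 13093843 to 24217633. A lone read was therefore worth at most 1.62 normalized counts in normal lung, and 0.633 to 1.19 in the tumor samples. The limit that a count of 0 allows, 3 reads, comes to at most 4.85 normalized counts. The tissue labels were checked against markers. The summed level of 4 alveolar genes was 132735 to 244592 in normal lung and 248 to 1598 in tumors. That of 4 leukocyte genes was 81525 to 161055 in normal lung and 292 to 10572 in tumors. Lyz2 made up most of the leukocyte sum in normal lung, at 78689 to 157579. In tumor 7, Ptprc (3291), Cd3e (248) and Cd68 (1419) were inside or above their normal lung ranges. These ranges were 1988 to 3120, 138 to 266 and 710 to 1962. In every other tumor these genes were below normal lung. A set of 6 neuroendocrine markers summed to 153 to 179 in normal lung and 24998 to 103386 in tumors. All 6 were called higher (median log2 fold change 8.85), where 31.4% of all genes were. These are bulk tissues, so fewer cells of a type and less RNA per cell cannot be told apart in any result here.

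Pou2f3 was scarce in both groups. The normal lungs held 9.03, 14.0, 11.3, 24.0 and 12.6 normalized counts, and tumors 1 to 7 held 5.70, 14.3, 5.95, 13.5, 3.24, 4.04 and 7.04. These rest on 7 to 17 reads in each normal lung and 4 to 15 in each tumor. Of the tumors, 5 lay below the lowest normal lung, while tumors 2 and 4 lay inside the normal range. The means were 14.2 ± 5.77 (SD, n = 5) and 7.68 ± 4.43 (SD, n = 7). The log2 fold change was -0.89 with an SE of 0.41, and it was not called (limma, adjusted p = 0.0737); it passed when tumor 2 was left out (-1.05, adjusted p = 0.0311) or tumor 4 (-1.04, adjusted p = 0.0429). Per kilobase of exon the level averaged 4.59 in normal lung, above 23.2% of 23540 genes, and 2.49 in tumors, above 13.5%.

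Of other regulators, Insm1 rose and Yap1 fell. Insm1, a transcription factor of the neuroendocrine program, stood at 4.16 to 11.98 normalized counts per kilobase in normal lung and at 1519 to 8269 in tumors, and it rose by 9.08 in log2 (SE 0.34, limma, adjusted p = 4.14e-10). The ratio of Insm1 to Pou2f3 per kilobase was 0.762 to 3.27 in the normal lungs. In tumors it was lowest in tumors 2 and 7, at 663 and 666, and highest in tumor 3, at 4293. Yap1, the Hippo pathway coactivator, fell (log2 fold change -4.50, SE 0.46, limma, adjusted p = 2.04e-06), from 3332 to 3723 normalized counts in normal lung to 49.6 to 721 in tumors, with the highest value in tumor 7. Neurod1 was not analysed here.

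**Figure D2:**
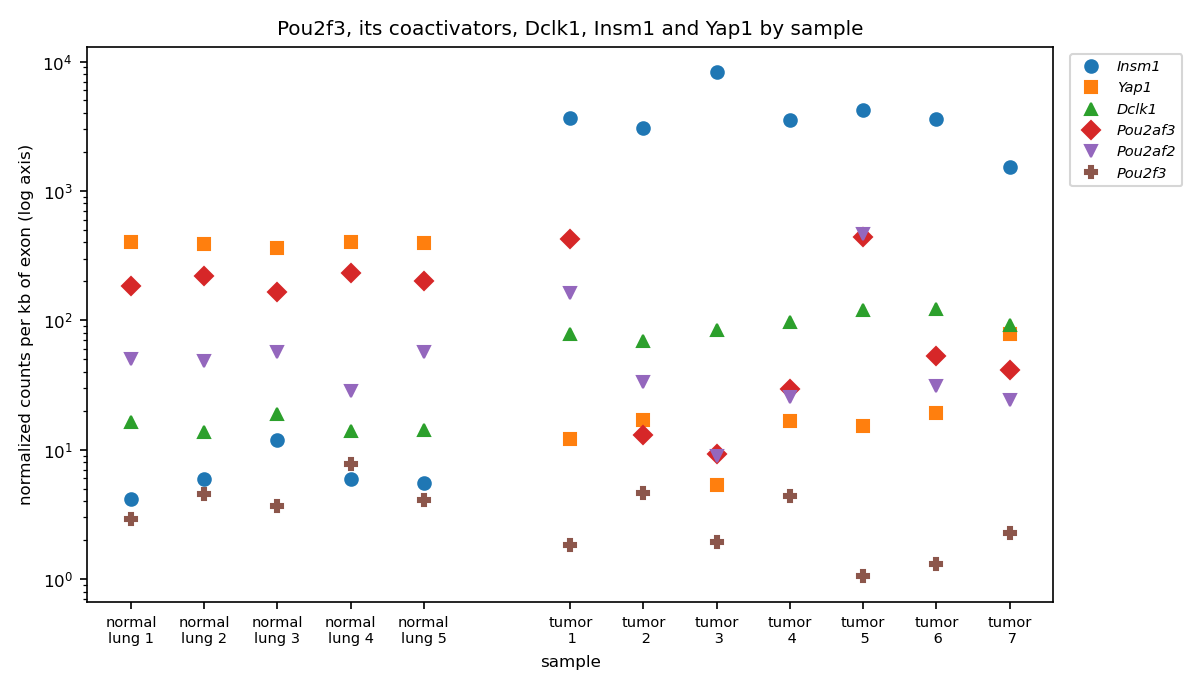
Normalized counts per kilobase of exon, on a log axis, for Insm1, Yap1, Pou2f3, the coactivators Pou2af2 and Pou2af3, and Dclk1 in each of the 12 samples. Insm1 lies above all other genes shown in the tumors, Pou2f3 is the lowest of the genes shown in every tumor, and Pou2af2 and Pou2af3 peak in tumors 1 and 5.

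The coactivators of Pou2f3 varied more between tumors than Pou2f3 did. Pou2af2, the coactivator tied most closely to the tuft lineage, had 72.2, 69.9, 82.4, 40.9 and 81.6 normalized counts in normal lung and 232, 47.7, 12.9, 36.8, 673, 44.5 and 34.6 in tumors 1 to 7. Tumors 1 and 5 were above every normal lung, tumors 3, 4 and 7 below every normal lung, and tumors 2 and 6 inside the range. Its log2 fold change was -0.02 with an SE of 0.77 (limma, adjusted p = 0.987). Pou2af3, another tuft coactivator, had 212 to 298 in normal lung and 540, 16.7, 11.9, 37.7, 559, 67.4 and 53.2 in the tumors, again highest in tumors 1 and 5. It was not called (-1.83, SE 0.87, limma, adjusted p = 0.0813) but passed without tumor 1 (-2.32, adjusted p = 0.0183) or without tumor 5 (-2.32, adjusted p = 0.0188).

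Pou2af1, best known as the B cell coactivator, had 282 to 2101 normalized counts in normal lung and 15.2, 105, 21.8, 22.5, 602, 76.8 and 259 in tumors 1 to 7. It fell (log2 fold change -3.30, SE 0.85, limma, adjusted p = 0.00420), with tumor 5 alone inside the normal range. Tumors 1 and 5, the pair with high Pou2af2 and Pou2af3, had 5.70 and 3.24 normalized counts of Pou2f3, and tumor 5 was the lowest of all samples. The octamer-binding relatives Pou2f1 and Pou2f2 both rose, by log2 fold changes of 0.98 (SE 0.22, limma, adjusted p = 0.00185) and 1.89 (SE 0.23, adjusted p = 1.13e-05). Pou2f2 had 578 to 1478 normalized counts in normal lung and 2337 to 4594 in tumors. Of the list of 5 coactivators and relatives, 2 were thus higher, 1 lower and 2 not called, where 31.4% of all genes were higher and 30.1% lower. The median log2 fold change of this list was -0.02.

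Among the other transcription factors, Ascl2, which marks tuft progenitors and intestinal stem cells, was uneven across tumors. Normal lungs had 19.3, 11.8, 12.9, 11.3 and 5.75 normalized counts, and tumors 1 to 7 had 3.17, 90.5, 36.7, 38.6, 12.9, 15.5 and 12.8. Tumors 2, 3 and 4 were above every normal lung, tumors 5, 6 and 7 were inside the range, and tumor 1 was below it. The log2 fold change of 0.75 (SE 0.64) was not called (limma, adjusted p = 0.322); without the 2 trachea-titled tumors it was 1.34 and passed (adjusted p = 0.0418). Its relative Ascl5 had at most 1.15 in normal lung and 2.53, 44.1, 54.5, 26.9, 3.24, 10.1 and 7.04 in the tumors (log2 fold change 3.56, SE 0.69, limma, adjusted p = 5.75e-04), highest in the same tumors 2, 3 and 4.

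Gfi1b, a repressor found in tuft cells and also in megakaryocytes and erythroid cells, had 9.03, 11.8, 12.9, 15.5 and 5.75 normalized counts in normal lung. Tumors 1 to 7 had 0, 23.8, 1.98, 0, 0, 0.674 and 3.84, so 6 lay below the lowest normal lung and tumor 2 lay above the highest. It was called lower (log2 fold change -2.20, SE 0.73, limma, adjusted p = 0.0179). The call was lost when same-numbered tumors were averaged (-1.91, limma, adjusted p = 0.0657) and with DESeq2 (-1.24, adjusted p = 0.389). It was also lost with edgeR without a low-count filter (-1.32, adjusted p = 0.334). Without tumor 2 the change was -2.76 (limma, adjusted p = 3.27e-04). Tumor 2 also had the highest tumor level of erythroid genes, 9100 normalized counts of the globin gene Hbb-bs and 88.2 of Klf1, where the other tumors had 76.0 to 913 and 4.96 to 26.6; the 6 megakaryocyte markers summed to 735 to 5001 in normal lung and 82.3 to 313 in tumors. Their part in the Gfi1b values was not tested. Gfi1, the related repressor of neuroendocrine and blood cells, had means of 36.8 and 121 and was not called (1.30, SE 0.56, limma, adjusted p = 0.0591); it passed under 5 other settings, among them edgeR (1.42, adjusted p = 0.0363) and DESeq2 (1.36, adjusted p = 0.0215).

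The taste cascade split. Gnat3, the gustducin alpha subunit, had 6.45, 38.7, 67.8, 42.3 and 6.90 normalized counts in normal lung and 1.27, 0, 0, 0, 0, 3.37 and 10.9 in tumors. All tumors but tumor 7 were below the lowest normal lung, and 4 of the 7 had no read. It fell, with a log2 fold change of -3.56 (SE 0.77, limma, adjusted p = 0.00127), and the change was also called by DESeq2 (-3.57, adjusted p = 0.00152). The partners that gustducin uses in taste cells moved the other way. Gnb3, its beta subunit, had 0 to 8.08 in normal lung and 95.4 to 430 in tumors and rose by 6.33 (SE 0.61, adjusted p = 1.3e-06). Gng13, its gamma subunit, had 0 to 2.82 in normal lung and 7.93 to 22.6 in tumors and rose by 3.32 (SE 0.44, adjusted p = 2.34e-05); it overlaps Chtf18, and the use of strand in counting is not given in the sources used here. The visual alpha subunits Gnat1 and Gnat2 also rose (3.39 and 1.67 in log2, limma, adjusted p = 4.49e-05 and 0.0180).

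Further down the cascade, Plcb2 had 713, 510, 795, 480 and 648 normalized counts in normal lung and 11.4, 22.6, 0.991, 16.2, 66.3, 260 and 751 in tumors 1 to 7. It was called lower (-3.99, SE 1.13, limma, adjusted p = 0.00771), with tumor 7 inside the normal range, but not by edgeR (-1.63, adjusted p = 0.151) or DESeq2 (-1.73, adjusted p = 0.0816). The pan-leukocyte gene Ptprc ran alongside it, at 1988 to 3120 in normal lung and 56.3, 83.4, 7.93, 80.8, 231, 758 and 3291 in the tumors. Itpr3 did not pass (-0.43, SE 0.38, limma, adjusted p = 0.350), with 498 to 1416 against 321 to 1338. The part of blood cells in these values was not tested.

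Trpm5, the channel that ends the cascade, was at 12.9, 9.68, 17.8, 2.82 and 18.4 normalized counts in normal lung and at 11.4, 20.3, 13.9, 14.4, 22.6, 18.2 and 28.8 in tumors. The groups overlapped, with tumors 2, 5 and 7 above the highest normal lung, and the log2 fold change of 0.70 (SE 0.43) was not called (limma, adjusted p = 0.175). Its relative Trpm4 fell (-1.61, SE 0.39, adjusted p = 0.00294). Among receptors, Tas1r1 and Tas1r3 were not called, at means of 91.5 and 55.4 in normal lung and 114 and 94.3 in tumors; Tas1r3 passed under some other settings, for example DESeq2 (0.90, adjusted p = 0.0163). The bitter receptor Tas2r108 had no read in any normal lung and 0 to 6.06 normalized counts in tumors, a level near the floor. Of the 16 listed taste genes 12 were tested, and 4 were higher, 3 lower and 5 not called, where 31.4% of all genes were higher and 30.1% lower. The list's median log2 fold change was 0.13, or -0.13 without Tas2r108.

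**Figure D3:**
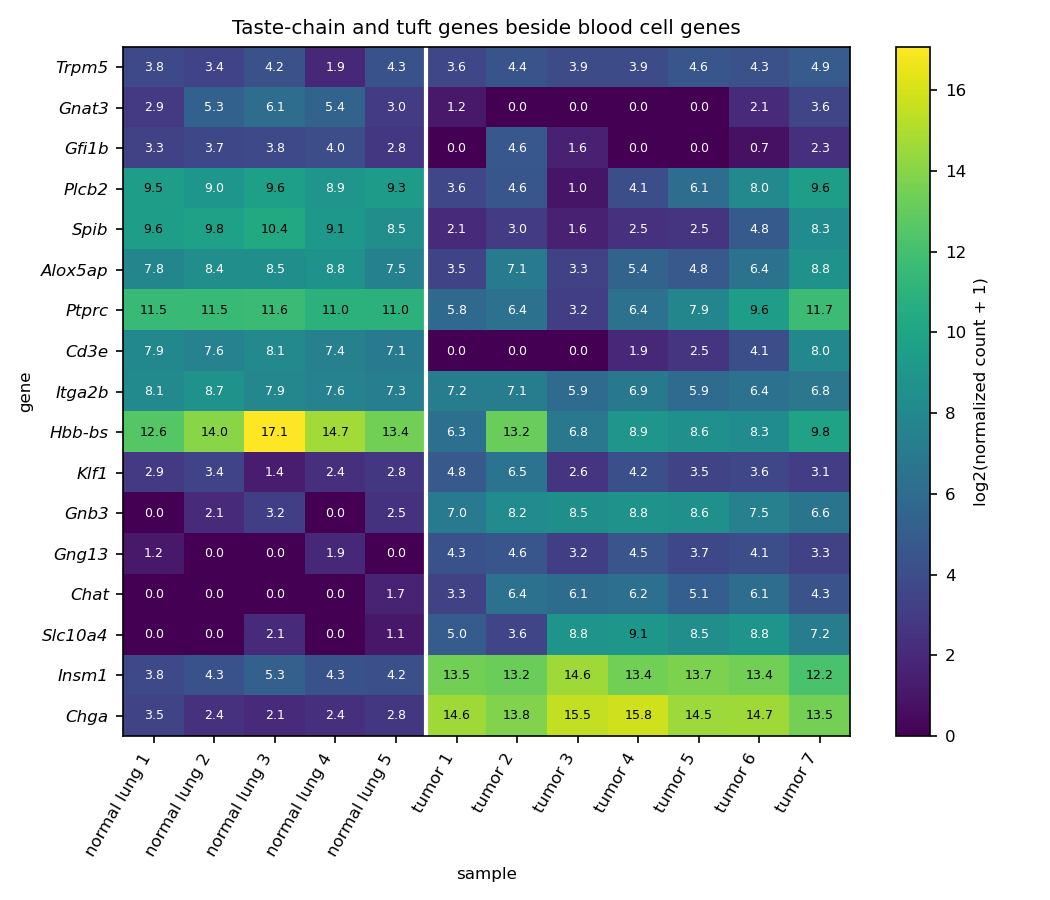
Heat map of log2(normalized count + 1) for taste-chain and tuft genes, blood cell genes and neuroendocrine genes (vertical axis) in each of the 12 samples (horizontal axis), with the value printed in each cell and a white line between normal lung and tumors. Plcb2, Spib and Ptprc are highest among tumors in tumor 7 and Gfi1b and Hbb-bs in tumor 2, while Gnb3, Gng13 and Chat are higher in every tumor than in any normal lung.

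The cytoskeletal members were both higher. Avil, which encodes the actin-bundling protein advillin of the microvillar tuft and of sensory neurons, had 31.0, 14.0, 12.9, 4.23 and 23.0 normalized counts in normal lung and 71.5, 141, 100.1, 82.6, 75.2, 99.1 and 378 in tumors 1 to 7. Every tumor was above every normal lung, and tumor 7 stood far above the other tumors. The means were 17.0 ± 10.2 (SD, n = 5) and 135 ± 109 (SD, n = 7), a ratio of 7.95, or 2.90 in log2 (SE 0.50, limma, adjusted p = 2.17e-04). Avil overlaps Tsfm on the opposite strand. Its family members did not move together: villin Vil1 rose (2.81, SE 0.48, adjusted p = 2.15e-04), gelsolin Gsn fell (-3.67, SE 0.38, adjusted p = 2.43e-06), and Svil and Scin were not called (0.02 and 1.35, adjusted p = 0.931 and 0.132).

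Dclk1, a microtubule-associated kinase that marks tuft cells in mouse gut and is also abundant in neurons, had the most reads of the members. Its values were 250.2, 210, 291, 214 and 218 normalized counts in normal lung and 1205, 1064, 1297, 1493, 1826, 1887 and 1396 in tumors, with no overlap between groups. The means were 237 ± 34.1 (SD, n = 5) and 1452 ± 308 (SD, n = 7), a ratio of 6.14, or 2.60 in log2 (SE 0.17, limma, adjusted p = 3.22e-08). Per kilobase it averaged 15.5 in normal lung, above 35.8% of genes, and 94.95 in tumors, above 62.2%; Gnat3 averaged more per kilobase in normal lung, 23.8, with a wide range of 4.74 to 49.8. Dclk1 made up 67.7% to 74.2% of the summed member counts in normal lung and 73.9% to 92.3% in tumors, so the sum, 294 to 426 against 1311 to 2096, mostly reports this gene. Without it the members summed to 75.9 to 136 in normal lung and 106 to 472 in tumors, which overlap.

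Of the doublecortin relatives of Dclk1, Dclk2 and Dcx were higher in tumors and Dclk3 was not called. Dclk2 had 123 to 266 normalized counts in normal lung and 2826 to 6968 in tumors (log2 fold change 4.80, SE 0.23, limma, adjusted p = 2.3e-09). Doublecortin itself, Dcx, a marker of migrating neurons, had no read in any normal lung and 1726 to 6061 normalized counts in tumors. The ratio of Dclk2 to Dclk1 per kilobase was 0.829 to 1.54 in normal lung and 2.93 to 9.49 in tumors. Dclk3 had means of 44.9 and 23.3.

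Of the output genes, Chat, which makes acetylcholine, had no read in normal lungs 1 to 4 and 2.30 normalized counts in normal lung 5. Tumors 1 to 7 had 8.86, 82.2, 65.4, 72.7, 34.0, 67.4 and 19.2. The groups were fully apart, and the tumors spanned nearly an order of magnitude with tumor 1 lowest. The normal lungs together held 2 reads and the tumors 402, a depth-adjusted ratio of 88.9 with an exact 95% interval of 24.5 to 737. Without tumor 3, which was left out of the count tests, the ratio was 83.9 (interval 23.1 to 696). Such intervals cover counting error at most. They pool the reads of each group, so the spread between samples is left out. Reads without molecular identifiers are not independent molecules, so the intervals may be too narrow even for counting error. On the log2 scale Chat rose by 5.01 with an SE of 0.58 (limma, adjusted p = 6.44e-06). Chat overlaps Gm2990 on the opposite strand.

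Il25, the cytokine by which tuft cells call group 2 innate lymphoid cells, was near the floor. It had no read in normal lungs 1 to 4 and 1.15 normalized counts in normal lung 5, and 4.43, 3.57, 4.96, 10.8, 3.24, 1.35 and 11.5 in tumors 1 to 7. Tumor 6, the lowest tumor, was barely above normal lung 5. With 1 read in all normal lungs and 51 in all tumors the ratio was 22.6, with an exact 95% interval of 3.87 to 908. Without tumor 3 the ratio was 23.0, with an interval of 3.92 to 927. These intervals cover counting error at most, with the limits given for Chat. In log2, limma put the rise at 2.31 (SE 0.44, adjusted p = 4.69e-04). Il25 rose by 4.83 when 0.1 in place of 1 was added to the normalized count, and by 4.06 with DESeq2. Its cytokine relatives Il17f and Il17b had 100.1 to 785 and 7.15 to 189 normalized counts in tumors, against at most 1.41 and 2.30 in normal lung. Both rose (7.49 and 5.39 in log2, limma, adjusted p = 7.9e-08 and 2.98e-05). Il17rb, the receptor subunit of Il25, had no read in any tumor and 0 to 3.23 normalized counts in normal lung; its partner Il17ra fell (-1.67, SE 0.16, adjusted p = 1.29e-06).

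Genes that handle acetylcholine gave 4 higher, 1 lower and 1 not called of 6 tested, with a median log2 fold change of 1.22. Over all genes 31.4% were higher and 30.1% lower. Slc10a4, a vesicle protein of cholinergic and monoamine neurons, had 0 to 3.23 normalized counts in normal lung and 30.4, 10.7, 448, 535, 349, 456 and 149 in tumors (6.64, SE 0.93, limma, adjusted p = 3.95e-05). Slc5a7, the choline transporter, stayed at 5.39 or below in every sample, and its call (1.16, SE 0.45, adjusted p = 0.0398) was lost under 12 of the other settings. Ache, which breaks acetylcholine down, rose (1.28, SE 0.40, adjusted p = 0.0140), though tumor 1 at 49.4 was below every normal lung and the call was lost when same-numbered tumors were averaged (1.09, adjusted p = 0.0701). Of its 2 anchoring proteins, Prima1 rose (2.60, SE 0.39, adjusted p = 6.32e-05) and Colq fell (-6.78, SE 0.47, adjusted p = 4.72e-08), from 304 to 914 in normal lung to 1.27 to 13.4 in tumors. The vesicular transporter Slc18a3 was not analysed here.

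In the type 2 cytokine and eicosanoid list 8 of 12 tested genes were lower, 1 higher and 3 not called, where 30.1% of all genes were lower and 31.4% higher. The list's median log2 fold change was -2.62. The alarmins Il33 (-5.74, SE 1.03, limma, adjusted p = 3.03e-04) and Tslp (-3.50, SE 0.50, adjusted p = 4.63e-05) fell, as did Ptgs1, the cyclooxygenase that marks tuft cells (-3.76, SE 0.55, adjusted p = 5.27e-05). Alox5 and Ltc4s of the leukotriene branch also fell (-3.85 and -2.65). Alox5ap was called lower by limma (-2.59, adjusted p = 0.0126) but not by edgeR (-1.23, adjusted p = 0.180). Several of these genes are also expressed by leukocytes and lung epithelium; the summed leukocyte and alveolar markers were lower in tumors as given above, and their part was not tested. Il4 alone was higher (0.53, SE 0.18, adjusted p = 0.0231), and that call was lost without normal lung 3 (0.49, adjusted p = 0.0580).

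Among 19 tested further tuft markers, 5 were higher, 11 lower and 3 not called, with a median log2 fold change of -2.01. The shares over all genes were 31.4% higher and 30.1% lower. Sh2d7, an adaptor, rose from at most 1.41 normalized counts to 1.92 to 10.8 (2.27, SE 0.45, limma, adjusted p = 6.59e-04). Its values rest on 2 to 13 reads in each tumor, near the floor, and it overlaps Cib2 on the opposite strand. Sh2d6 did not pass (0.27, limma, adjusted p = 0.626). Hepacam2 (1.98), the kinase Matk (1.52) and Sox9 (3.27) were the other higher calls besides Vil1. Hepacam2 had 183 in tumor 1, inside the normal range of 148 to 261, and 703 to 1717 in the other tumors. Krt23 (-6.49), Siglecf (-6.33), Spib (-5.93), Bmx (-3.31) and Ly6g6f (-2.84) were among the lower calls. Spib, which is also a B cell factor, had 351 to 1347 in normal lung and 1.98 to 308 in tumors, highest in tumor 7 like Plcb2. Over the 6 lists of related genes together, 23 of 72 tested genes were higher, 28 lower and 21 not called, beside 31.4% higher and 30.1% lower over all genes.

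**Figure D4:**
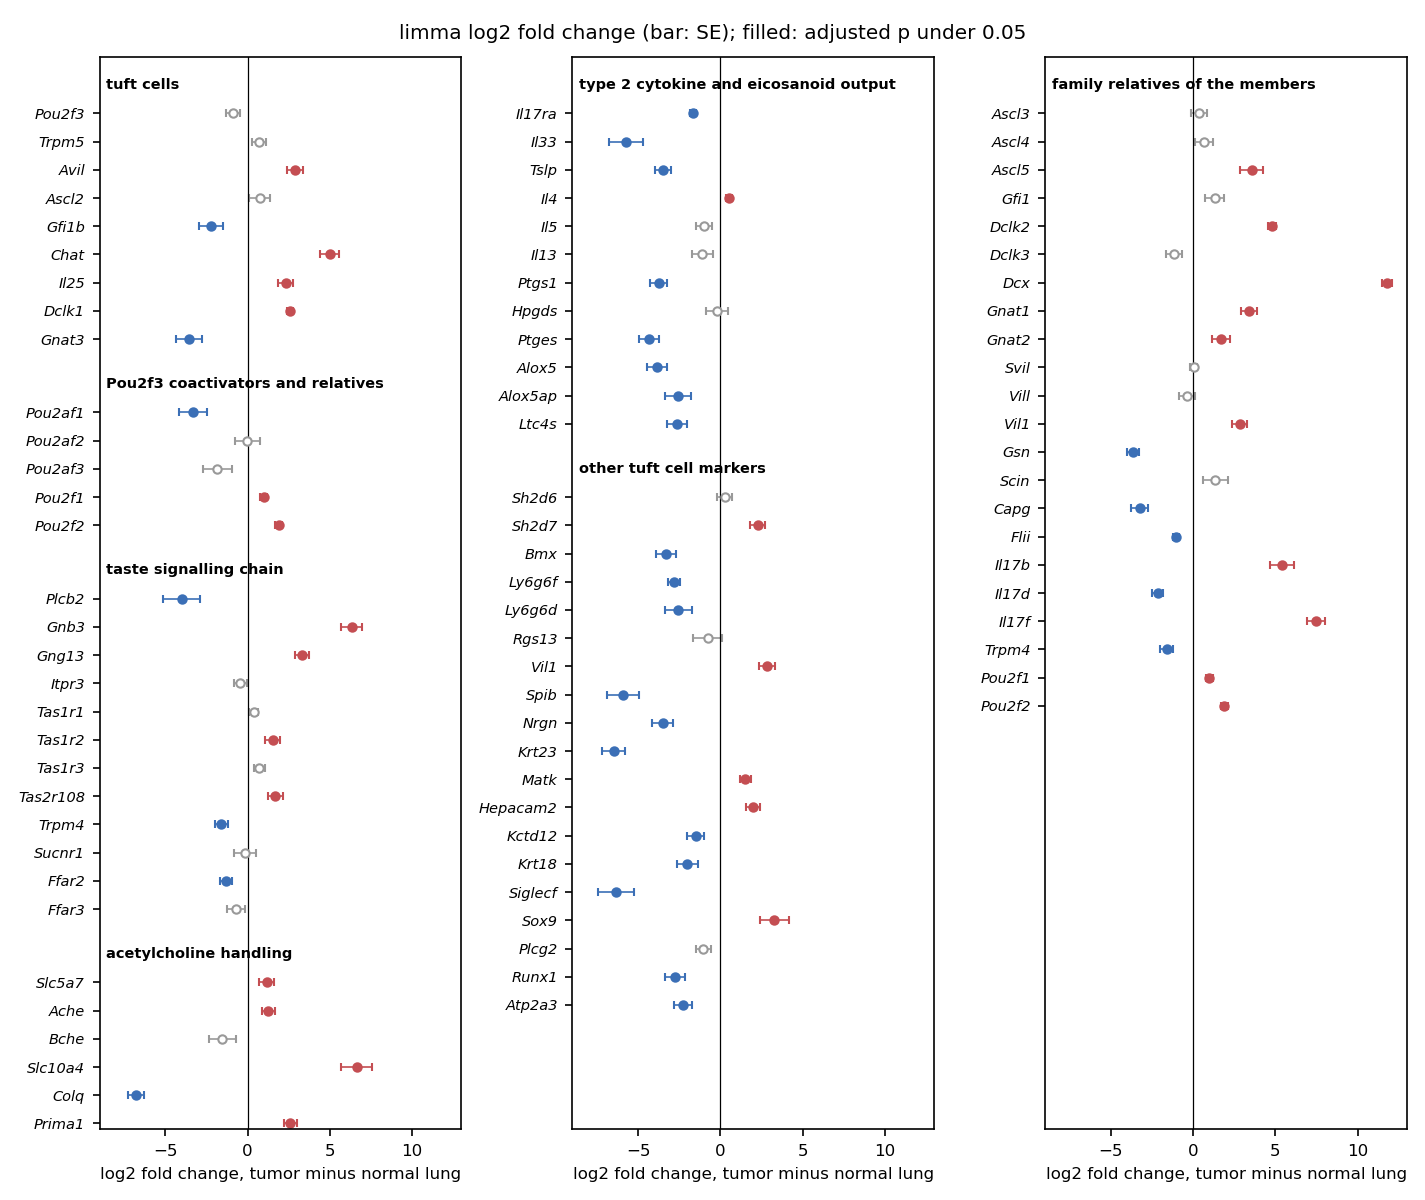
Log2 fold change of tumor over normal lung (horizontal axis) with its SE for each tested gene of the member list and of the 6 lists of related genes (vertical axis). Filled points were called, red higher and blue lower, and open grey points were not; every list shown holds calls in both directions.

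Of the family relatives of the members, 10 of 22 tested were higher, 5 lower and 7 not called, where 31.4% of all genes were higher and 30.1% lower (list median 1.14, or 0.98 without Dcx). Ascl5, Dclk2, Dcx, Gnat1, Gnat2, Vil1, Il17b, Il17f, Pou2f1 and Pou2f2 were the 10. They include relatives of members that were lower or not called: Ascl5 against Ascl2, Gnat1 against Gnat3, and Pou2f2 against Pou2f3.

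RefSeq promoter windows of the mouse build GRCm38.p6, 250 bases before to 50 after a gene start, were found for 7 of the 9 members, in 8 windows. They were searched on both strands for the octamer bound by POU2F factors, ATGCAAAT, and for that octamer lacking an end base (ATGCAAA or TGCAAAT). No member window held the full octamer, which 1.74% of 32851 promoters hold. The shorter octamer was in the windows of Avil and Chat, 2 of the higher members, and is in 6.82% of promoters. The 250 bases before the start of these genes are shown with the matches in capitals, Avil at chr10:127000459-127000708 on the plus strand and Chat at chr14:32465910-32466159 on the minus strand, each read along the gene.
Avil: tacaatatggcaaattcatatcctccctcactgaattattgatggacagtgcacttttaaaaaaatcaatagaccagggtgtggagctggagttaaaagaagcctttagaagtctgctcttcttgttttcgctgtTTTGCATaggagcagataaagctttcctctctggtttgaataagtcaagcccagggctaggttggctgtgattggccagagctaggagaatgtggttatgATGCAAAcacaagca
Chat: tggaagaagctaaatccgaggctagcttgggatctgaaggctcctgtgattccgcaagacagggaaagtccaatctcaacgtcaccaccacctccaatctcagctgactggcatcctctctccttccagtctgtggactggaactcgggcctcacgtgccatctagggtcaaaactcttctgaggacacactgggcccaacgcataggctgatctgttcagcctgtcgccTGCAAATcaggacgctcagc
In Avil the matches begin 115 and 15 bases before the start, the former as its reverse complement, and in Chat the match begins 20 bases before the start. A match describes these letters only.

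For each member, the genes with the most similar profile were taken as those with the highest Pearson correlation of log2(normalized count + 1) among 18493 genes, as a description over 12 samples that share the contrast of tissue and tumor. For Pou2f3 they were Pet100, an assembly factor of cytochrome oxidase (r = 0.968), Ndufs7, a complex I subunit (0.941), and the ribosomal pseudogene Rpl9-ps6 (0.940). Within the 7 tumors they were Hltf (0.986), Gm6261 (0.983) and Pet100 (0.983), with 4 to 15 reads of Pou2f3 in each tumor. Pet100 and Pou2f3 were both highest in normal lung 4 and lowest in tumor 5. Dclk1 ran with Srgap3 (0.996), the adhesion receptor Adgrb3 (0.995) and the mitotic kinesin Kif11 (0.995). Chat ran with the neuropeptide gene Cort (0.988), Tro (0.988) and Col2a1 (0.987). Avil ran with Shcbp1l (0.958), 1500015O10Rik (0.956) and Nxph1 (0.952), and Gfi1b with Tmem39a (0.986), Ppp1r15a (0.969) and Shld2 (0.968). Trpm5 ran with Gm40841 (0.937), Cilp2 (0.936) and Mybphl (0.880). Ascl2 ran with Mmp21 (0.960), Grik2 (0.955) and Wdr73 (0.901), and Il25 with Eipr1 (0.953), Mboat1 (0.935) and Fkbp5 (0.928). Matches within the tumors are given here only for Pou2f3 and Gnat3. Gnat3 ran with 3 immunoglobulin heavy chain segments, Ighv14-2 (0.974), Ighv5-17 (0.972) and Ighv10-3 (0.967). Within the tumors it ran with Klrg1, a receptor of T and natural killer cells (0.999), Fabp1 (0.997) and Gm30373 (0.995). Only tumors 1, 6 and 7 had Gnat3 reads, so the values within tumors rest on those samples. Ighv14-2 was at 7.74, 104, 181, 95.9 and 6.90 normalized counts in normal lung, where Gnat3 was also lowest in normal lungs 1 and 5, and at 5.39 and 42.9 in tumors 6 and 7, where Gnat3 had reads. The match was not complete: tumor 1 had 1.27 of Gnat3 and none of Ighv14-2, and tumor 4 had 0.898 of Ighv14-2 and none of Gnat3. The part of lymphoid cells in the Gnat3 values was not tested.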

How the data were processed

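RNA from 5 normal mouse lungs and 7 mouse tumors was sequenced after poly-A selection, per the labels' protocols. The deposited table holds normalized counts, that is a signal of gene counts divided by a size factor for each library; per the submitters' processing notes, featureCounts, DESeq2 and the GRCm39 build were used, with no version or role given. In each column the values are whole multiples of a smallest step, within 0.001 reads, from which reads were recovered. In tumor 3 the step, 0.991, was near 1, and that sample was left out of edgeR and DESeq2, which used 11 samples, although its values were whole multiples too. Its reads as given by that step do enter the pooled read ratios of Chat and Il25, which are also given without it.

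Ensembl identifiers were given symbols from GENCODE M21 for 29982 of 30399 genes, and levels per kilobase used the union exon length of that annotation. Tumor and normal lung were compared with limma 3.58.1 (trend) on log2(normalized count + 1), for genes with a mean of at least 1, with Benjamini-Hochberg adjustment over all of them. This was written into the plan for normalized values, and edgeR 4.0.16 (quasi-likelihood) and DESeq2 1.42.0 on the recovered reads were alternatives, as were the settings in the closing section. The limma step was tested on simulated data. The members, all list genes and the 3 most similar genes per member were those to be named; members and lists were chosen with earlier results of these data known, and genes next to the Pou2af genes after their values were seen. A few listed genes are not reported here, and list counts and sums do not include them. Listed genes without a row in the table used here (such as Neurod1, Slc18a3, Grp and Rgs21) were not analysed here. R 4.3.3 and Python 3.11.15 were used.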

Additional observations from a re-analysis of the deposited data

Results flagged for a closer look

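Single samples were compared with the rest of their group by the gap to the nearest sample over the group's range (Dixon's 95% limit) in 113 groups of 58 genes. Of these, 9 were past the limit, where chance alone would give 5.65. Among the member genes, Avil in tumor 7 was 377.861 normalized counts against 140.57 in the next tumor. Chat in normal lung 5 was 2.29926 and Il25 in normal lung 5 was 1.14963, where the other normal lungs had no read, so these rest on 2 reads and 1 read. Ascl5 in normal lung 5, also 1.14963, is 1 read too. Where all other samples of a group have no read, any read passes the limit, so these flags were fixed in advance.

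Of the related genes, Pou2af2 was lowest among normal lungs in normal lung 4, at 40.909, and Pou2f2 was lowest among tumors in tumor 3, at 2336.8. Tumor 1 was the lowest tumor for Ache, at 49.3799 against 169.717 in the next, and for Hepacam2, at 182.959 against 702.924. Il33 was highest among normal lungs in normal lung 3, at 2144.82.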

How the results depend on the processing

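The count of 4 higher members was 4 whichever sample was left out; it was 3 with a mean of at least 10 and with edgeR's filter, neither of which tests Il25, 5 without the trachea-titled tumors, when Ascl2 passed, and 4 under the other settings. No called gene that the text reports changed direction. The count of lower members, 2 with limma, was 1 with a mean of at least 10, 1 with same-numbered tumors averaged, 1 with DESeq2, 1 with edgeR without a low-count filter (a setting chosen after seeing the data) and 0 with edgeR's filter, which left Gfi1b, Il25 and Gnat3 untested; with a sample left out it was 2 to 3. Leaving out each sample gave 6829 to 7684 higher and 6526 to 7574 lower genes in all, and 21 to 24 higher and 28 to 30 lower genes over the 6 lists. Equal library totals moved the median log2 fold change of all genes from 0.04 to 0.23 and the calls from 7430 higher and 7124 lower to 8594 and 6129. Members with samples at 0 reads changed in size when 0.1 in place of 1 was added to the normalized count. Their log2 fold changes were then 7.72 for Chat, 4.83 for Il25, -5.54 for Gnat3 and -3.78 for Gfi1b, while that of Dclk1 stayed at 2.60. Of the log2 fold changes recomputed for single genes, 1245 kept their side of the threshold, 26 lost it and 26 gained it. No paired analysis was possible because the labels give no replicate numbers shared between normal lung and tumor; treating same-numbered tumors as correlated (estimated correlation 0.304) gave 7070 higher and 6877 lower genes. Gfi1b, Il25, Pou2f3 and Trpm5 rest on few reads per library, so differences among single samples in them are limited by depth.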

Other observations

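The 3 Pou2af genes lie next to each other on mouse chromosome 9, in the RefSeq order Pou2af1, Pou2af3, Pou2af2, so their neighbours were also looked at; these genes were chosen after the values of Pou2af2 and Pou2af3 had been seen. Tumor 5 was the highest tumor for Pou2af1 (602 normalized counts), Pou2af3 (559), Pou2af2 (673) and the next gene Arhgap20 (186.9, against 34.6 to 103 in the other tumors). Beyond it, Fdx1 was 274 in tumor 5 and 220 to 344 in the tumors as a whole. The following genes Rdx (4454, at most 4022 in the other tumors), Zc3h12c (1228, at most 1176) and AI593442 (2597, at most 1639) were again highest among tumors in tumor 5. In normal lung Fdx1 was 591 to 1000 and Rdx 4555 to 5538, both above tumor 5. Arhgap20 was 20.4 to 41.3 there, Zc3h12c 275 to 468 and AI593442 2.30 to 16.2. In tumor 1 the high genes were Pou2af3 (540), Pou2af2 (232) and Gm32742 (186.8), a gene on the far side of Pou2af1, where the other tumors had 5.12 to 17.9. Pou2af1 itself was 15.2 in tumor 1, the lowest of the tumors. Btg4, the following gene, was at 1.28 to 19.1 in all tumors.

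Ascl2 and Trpm5 both lie on mouse chromosome 7, with Tspan32, Cd81 and Tssc4 among the genes between them. In tumor 2, Ascl2 was the highest of the tumors at 90.5 normalized counts while Trpm5 was 20.3, inside the tumor range of 11.4 to 28.8.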
